A study of Mus musculus with 6 samples.

Results

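The genes that carry a Wnt signal from the secreting cell to the receiving one were compared in dorsal skin between mice with the tight skin (TSK) allele and wild-type (WT) mice. Members were the protein-coding genes whose names begin with Wnt or Fzd followed by a digit, together with the co-receptor genes Lrp5 and Lrp6, the R-spondin genes Rspo1 to Rspo4, the receptor genes Lgr4 to Lgr6, and the Wnt secretion genes Porcn and Wls. This rule used names alone, with no measured value, and found 40 of the 55291 genes in the table: 19 Wnt ligands, 10 Frizzled receptors, 2 Lrp co-receptors, 4 R-spondins, 3 Lgr receptors and 2 secretion genes.

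RNA came from shaved dorsal skin of 3 TSK mice and 3 WT littermates, with 1 library per mouse. TSK mice are heterozygous for a germline duplication within Fbn1, which encodes fibrillin 1, a protein of extracellular microfibrils. Both genotypes were on the C57BL/6 strain and aged 6 to 8 weeks per the labels, which give all mice as female, whereas the study describes male mice for this experiment. No mouse received a treatment or tumor cells.

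Wnt proteins are secreted lipid-modified ligands. Porcn attaches the lipid in the endoplasmic reticulum and Wls carries the ligand to the cell surface, where it meets a Frizzled receptor and, in the beta-catenin pathway, the co-receptor Lrp5 or Lrp6. R-spondins bind Lgr receptors and slow the removal of Frizzled receptors from the membrane, which makes a cell more sensitive to Wnt. In skin, these signals take part in the formation and cycling of hair follicles, in the upkeep of the epidermis and in the growth of dermal fibroblasts and scar tissue.

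Libraries held 17561453 to 19219814 counts, and totals overlapped between the genotypes. The keratinocyte gene Krt14 was at 663 to 1309 counts per 1000000 (CPM) in WT and 447 to 1045 in TSK skin, and the collagen gene Col1a1 at 2454 to 4082 and 7461 to 20075. The libraries also held much muscle RNA: 16 adult muscle genes summed to 169766 to 307509 CPM in WT and 132778 to 161624 in TSK. All CPM values here and below were scaled with TMM factors, which correct for a few abundant genes taking up the counts. Over all tested genes, log2 fold changes had a median of -0.03 with TMM and of 0.25 with library size alone.

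Of the 40 members, 33 had enough counts to be tested. At an adjusted p below 0.05 (edgeR, adjusted over 19971 genes), 4 members were higher in TSK skin: the ligand genes Wnt10b, Wnt2 and Wnt2b and the receptor gene Fzd2. These are 12.1% of the tested members, against 2.71% of all tested genes. Among them, Wnt2b passed the low-count filter only through its TSK libraries. No member was lower, against 0.681% of all tested genes. At an unadjusted p below 0.05 there were 9 members higher and 1 lower, against 12.1% and 7.9% of all tested genes. DESeq2 called 7 members higher and none lower, or 20.6% of the 34 members to which it gave an adjusted p, against 5.13% of all genes higher and 1.85% lower. At the study's thresholds, an adjusted p below 0.01 and a fold above 2.5, edgeR called Wnt10b alone higher, against 0.255% of all genes, and none lower, against 0.0351%. DESeq2 called Wnt10b, Wnt2 and Wnt2b higher at those thresholds, against 1.4% of all genes, and none lower, against 0.309%. The median log2 fold change of the tested members was 0.14, with 22 above 0 and 11 below. In bulk tissue, more cells of a type and more RNA per cell cannot be told apart, which holds for every level below.

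Wnt10b, a beta-catenin pathway ligand linked to hair follicle growth, was at 2.003, 1.81 and 1.55 CPM in WT 1 to 3 and at 9.95, 11.4 and 16.7 CPM in TSK 1 to 3. Every TSK library lay far above every WT library, and TSK 3 was the highest. The log2 fold change was 2.82 (SE 0.25, 95% interval 2.25 to 3.39, edgeR adjusted p = 0.0033), or 7.05-fold. This member was called in every alternative fit, and its adjusted p was 0.0340 at most, reached when WT 3 was left out.

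Wnt2, a ligand made by mesenchymal cells, was at 1.22, 1.56 and 0.994 CPM in WT and at 8.19, 5.28 and 16.5 CPM in TSK skin. The groups did not overlap, but the TSK libraries were spread widely, with TSK 3 above the others. The log2 fold change was 2.99 (SE 0.44, 95% interval 1.97 to 4.003, edgeR adjusted p = 0.0148), or 7.93-fold. It was 2.42 without TSK 3, with an adjusted p of 0.0196, and the call was lost without WT 3, with an adjusted p of 0.0831.

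Wnt2b, a relative of Wnt2, was the least abundant of the called ligands, with 4, 5 and 4 counts in WT libraries and 23, 56 and 35 in TSK libraries. In CPM these were 0.223, 0.324 and 0.248 in WT and 1.19, 2.62 and 1.65 in TSK skin. Here TSK 2 was the highest library, and again the groups did not overlap. The log2 fold change was 2.76 (SE 0.44, 95% interval 1.77 to 3.76, edgeR adjusted p = 0.0177). Wnt2b passed the low-count filter only through its TSK libraries, so its place in the test rests on the group where it is high. Leaving out WT 3 took the adjusted p to 0.0853.

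Wnt1, a ligand gene best known from the developing brain, lies next to Wnt10b and had too few counts for the main test. Its counts were 0, 1 and 0 in the WT libraries and 8, 13 and 18 in the TSK libraries. It was thus close to absent in WT libraries and present at a low level in every TSK library. The ratio of the summed counts, 39 against 1, was 31.2 after scaling (exact 95% interval 5.28 to 1262, counting error only). DESeq2, which kept the gene, gave an adjusted p of 0.0133, and edgeR called it when no low-count filter was used.

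Wnt10b and Wnt1 are neighbors on chromosome 15, in mm10 at chr15:98770712-98778150 on the minus strand and chr15:98789857-98793837 on the plus strand. They point away from each other, with 11706 bases between them. Wnt2 lies at chr6:17988940-18030585 and Wnt2b at chr3:104945272-104961921, both on the minus strand. Of the 8 tested genes within 100 kb of Wnt10b, none was called, and log2 fold changes ran from -0.20 to 0.82. The 2 tested genes within that distance of Wnt2 were not called either, at 0.02 to 0.23. Nor were the 3 near Wnt2b, at -0.23 to 0.53 and with a lowest edgeR adjusted p of 0.0666. Tested Wnt genes in the other close pairs were not called: Wnt6 and Wnt10a on chromosome 1, 6193 bases apart, had log2 fold changes of 0.11 and -0.31, and Wnt3a and Wnt9a on chromosome 11, 16175 bases apart, of -0.92 and 0.26. Wnt3, at -0.25, lies 24328 bases from Wnt9b, which was not tested.

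The 250 bases before the RefSeq start of Wnt10b, Wnt1, Wnt2 and Wnt2b are shown because these ligand genes had the greatest differences between the genotypes. The sequences are from RefSeq (GRCm38.p6), written 5′ to 3′ on the strand of the gene, and capitals mark GC boxes (GGGCGG) and CCAAT boxes (CCAAT) found on either strand, so that CCGCCC and ATTGG are the same motifs on the other strand.
Wnt10b: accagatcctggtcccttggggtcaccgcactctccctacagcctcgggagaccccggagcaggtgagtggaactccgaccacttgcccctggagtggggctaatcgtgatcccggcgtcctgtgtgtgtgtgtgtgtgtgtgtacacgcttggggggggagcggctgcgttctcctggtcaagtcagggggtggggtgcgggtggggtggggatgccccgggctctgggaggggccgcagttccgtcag
Wnt1: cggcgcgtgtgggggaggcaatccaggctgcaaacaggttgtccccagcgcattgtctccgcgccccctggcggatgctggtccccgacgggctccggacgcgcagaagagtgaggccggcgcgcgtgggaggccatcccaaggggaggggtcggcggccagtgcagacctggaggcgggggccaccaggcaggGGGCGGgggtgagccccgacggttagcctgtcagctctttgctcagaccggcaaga
Wnt2: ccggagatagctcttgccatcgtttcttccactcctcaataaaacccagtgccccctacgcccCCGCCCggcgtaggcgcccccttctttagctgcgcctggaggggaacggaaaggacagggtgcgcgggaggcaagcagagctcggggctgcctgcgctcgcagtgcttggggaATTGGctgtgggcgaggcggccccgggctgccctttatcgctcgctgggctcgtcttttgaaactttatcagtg
Wnt2b: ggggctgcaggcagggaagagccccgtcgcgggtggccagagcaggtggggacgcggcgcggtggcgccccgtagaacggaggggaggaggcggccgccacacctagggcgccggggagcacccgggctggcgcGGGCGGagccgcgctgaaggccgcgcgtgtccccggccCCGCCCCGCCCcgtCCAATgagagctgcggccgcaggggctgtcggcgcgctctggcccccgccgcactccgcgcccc
They cover chr15:98778151-98778400, chr15:98789607-98789856, chr6:18030446-18030695 and chr3:104961710-104961959. RefSeq places the starts of Wnt2 and Wnt2b farther into the gene than the annotation whose positions are given above, so that 140 bases of the Wnt2 sequence and 212 bases of the Wnt2b sequence lie inside the genes as given there. The sequences of Wnt10b and Wnt1 end right at the gene in both. All were richer in G and C than the median of 52.4% over all promoters of this length: 66.8% for Wnt10b, 71.6% for Wnt1, 63.6% for Wnt2 and 80.8% for Wnt2b. None of the 4 sequences held the letters bound by TCF and LEF factors (CTTTGAA or CTTTGAT on either strand) or a TATA box (TATAAA), which 7.48% and 12.4% of all 32851 promoters held. Wnt1 held 1 GC box, Wnt2 held 1 GC box and 1 CCAAT box, and Wnt2b held 3 GC boxes and 1 CCAAT box, of which the GC boxes at 78 to 73 and 73 to 68 bases before the RefSeq start share 1 base. A GC box was found in 32.7% of all promoters and in 21 of the 29 promoters listed for 26 members. A CCAAT box was in 33.8% of all promoters and in 10 of those 29. These are matches of letters only.

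**Figure D1:**
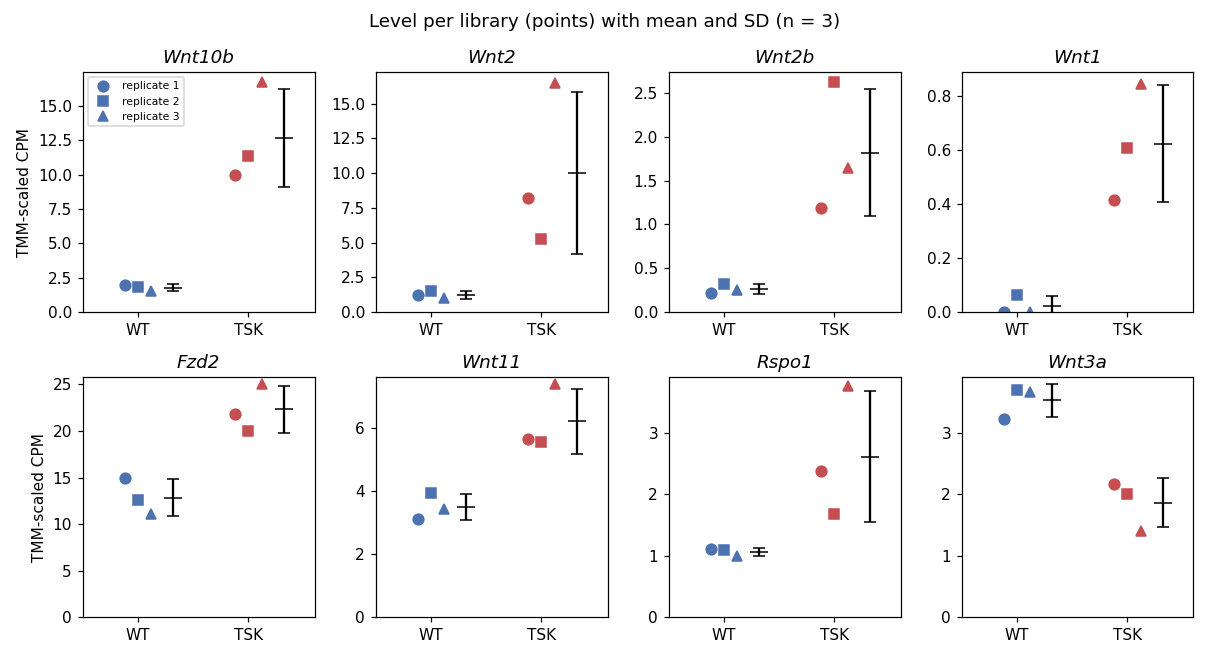
TMM-scaled CPM of 8 members in each library, with WT in blue and TSK in red, a symbol for each replicate and the mean with its SD (n = 3) beside the points, cut at 0 for Wnt1. Wnt10b ran from 1.55 to 2.003 in WT and from 9.95 to 16.7 in TSK skin, and Wnt3a is the one shown whose TSK points all lie below the WT points.

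Fzd2, a Frizzled receptor gene with a single coding exon at chr11:102604396-102608058, was the called receptor. It was at 14.9, 12.6 and 11.1 CPM in WT and at 21.8, 20.1 and 25.1 CPM in TSK skin. The groups did not overlap, but the difference was smaller than for the ligands, with a log2 fold change of 0.79 (SE 0.15, 95% interval 0.44 to 1.15, edgeR adjusted p = 0.0329), or 1.73-fold. Leaving out WT 1 kept the call. Leaving out any 1 of the other libraries lost it, at log2 fold changes of 0.70 to 0.86 and with adjusted p from 0.0515 without TSK 2 to 0.142 without WT 3. Without WT 2, TSK 1 and TSK 3 it was 0.107, 0.0687 and 0.0798.

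The other Frizzled genes were not called, and their log2 fold changes ran from -0.20 (Fzd9) to 0.50 (Fzd8). Fzd1, Fzd5 and Fzd8 were above WT in every TSK library, at log2 fold changes of 0.34, 0.29 and 0.50 and edgeR adjusted p of 0.210, 0.263 and 0.138. Fzd8 was called when WT 1 was left out (adjusted p = 0.0469, with a range over all alternatives of 0.0469 to 0.382). Fzd4, the receptor for norrin in blood vessels, was the most abundant member of the family per kilobase of exon. It was at 144, 210 and 253 CPM in WT and at 207, 260 and 174 in TSK skin, so the groups overlapped. Fzd7 was nearest to no difference, with a log2 fold change of 0.00 and a 95% interval of -0.27 to 0.27. Fzd3, Fzd6 and Fzd10 were at -0.07, 0.22 and 0.37.

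Members that missed the threshold in edgeR and passed it in DESeq2 were Wnt11, Rspo1 and, outside the edgeR test, Wnt1. Wnt11, a ligand known for signaling without beta-catenin in cell movement, was at 3.12, 3.95 and 3.42 CPM in WT and at 5.65, 5.56 and 7.39 CPM in TSK skin. All TSK libraries lay above all WT libraries, at a log2 fold change of 0.83 (SE 0.20, 95% interval 0.37 to 1.29). The adjusted p was 0.0652 in edgeR and 0.0247 in DESeq2, within a range of 0.0161 to 0.204 over all alternatives. Wnt11 shares 364 exon bases with a gene annotated on the opposite strand.

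Rspo1, the most abundant R-spondin gene per kilobase, was at 1.11, 1.10 and 0.994 CPM in WT and at 2.38, 1.68 and 3.76 CPM in TSK skin. The WT libraries were close together and the TSK libraries were all above them, with TSK 3 the highest. The log2 fold change was 1.28 (SE 0.34, 95% interval 0.50 to 2.07). The adjusted p was 0.0828 in edgeR and 0.0443 in DESeq2, within a range of 0.0305 to 0.247. Rspo3 was at -0.08 on the log2 scale, with an interval of -0.91 to 0.74. Rspo2 and Rspo4 were not tested, with 5 and 9 counts over the WT libraries and 20 and 25 over the TSK libraries. Summed per kilobase, the R-spondins were at 1.06 ± 0.273 CPM in WT and 1.97 ± 0.537 in TSK (SD, n = 3).

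Among the tested members, 11 were above WT in every TSK library (33.3%, against 14.1% of all tested genes). These were the 4 called members, Wnt11, Rspo1, Wnt5b, Fzd1, Fzd5, Fzd8 and Lrp6. Wnt5b, a ligand of the pathway without beta-catenin, had a log2 fold change of 1.00 (edgeR adjusted p = 0.127, and 0.0294 without WT 1). One member, Wnt3a, was below WT in every TSK library, against 10.6% of all tested genes, and its values are given for that reason, after they were seen. Wnt3a, a strong activator of beta-catenin signaling, was at 3.23, 3.69 and 3.67 CPM in WT and at 2.18, 2.01 and 1.41 CPM in TSK skin. Its log2 fold change was -0.92 (SE 0.24, 95% interval -1.46 to -0.37), with an adjusted p of 0.0760 in edgeR and 0.0673 in DESeq2.

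**Figure D2:**
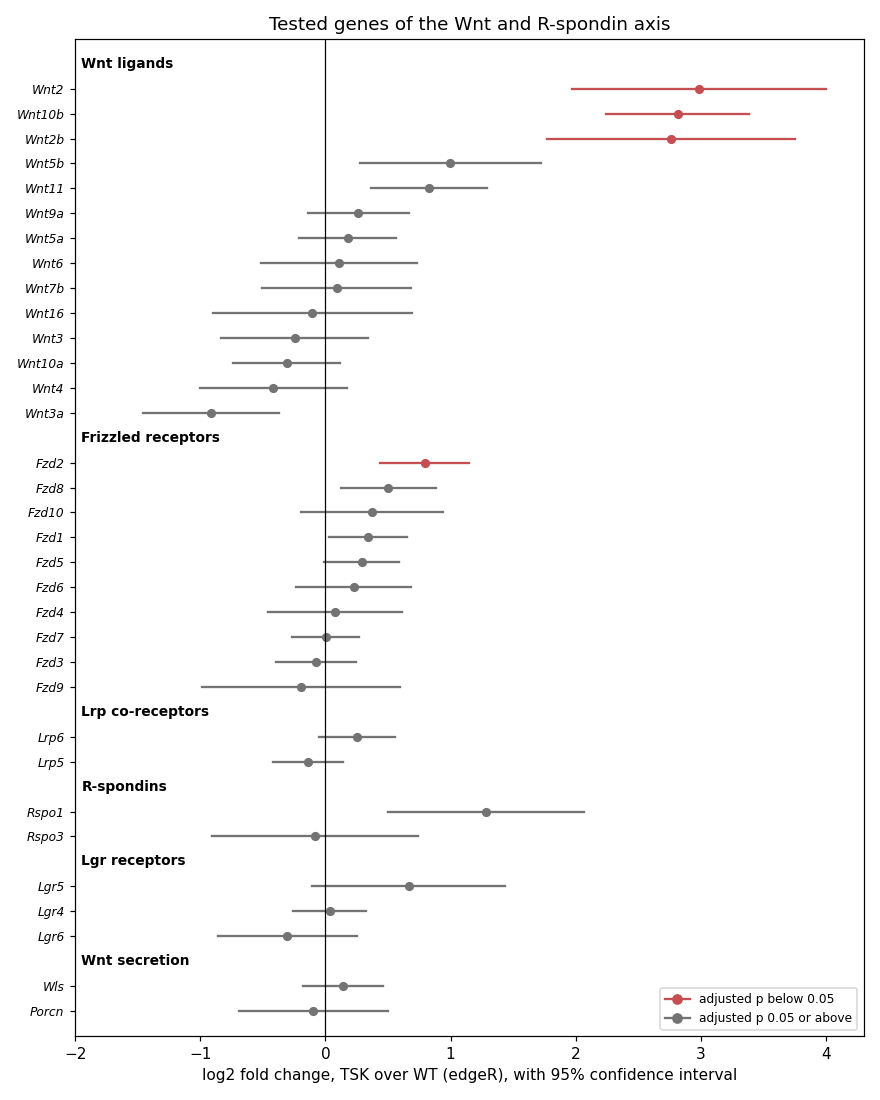
Log2 fold change of TSK over WT from edgeR with its 95% interval for the 33 tested members, grouped by role, with members at an adjusted p below 0.05 in red. Wnt2, Wnt10b and Wnt2b stand at 2.76 to 2.99, and Fzd2 at 0.79, while most intervals of the other members include 0.

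The other ligand genes were not called. Wnt4, the most abundant ligand gene per kilobase, was at 30.4, 27.0 and 30.4 CPM in WT and at 32.8, 16.5 and 16.7 in TSK skin. TSK 1 was thus as high as WT while TSK 2 and TSK 3 were lower, and the log2 fold change was -0.42 (95% interval -1.004 to 0.17, edgeR adjusted p = 0.417). Without TSK 1 it was -0.82, with an adjusted p of 0.0314 (range over all alternatives 0.0314 to 0.736). Of the 50-base windows in the Wnt4 transcripts, 3.85% also occur in other genes, and none of those of Wnt10b, Wnt2, Wnt2b and Fzd2 do. Ligands made largely by keratinocytes, Wnt3, Wnt7b and Wnt10a, had log2 fold changes of -0.25, 0.09 and -0.31. Wnt5a, Wnt6, Wnt9a and Wnt16 were at 0.18, 0.11, 0.26 and -0.10. Wnt7a, Wnt8a, Wnt8b and Wnt9b were not tested and had 1 to 3 counts over all WT libraries and 1 to 11 over all TSK libraries.

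The makeup of the ligand RNA pool was described per kilobase of exon, so that genes can be set beside each other. Summed over the 19 ligands, the level was 28.0 ± 1.21 CPM per kilobase in WT and 34.4 ± 4.22 in TSK skin. Wnt10b made up 2.02%, 1.99% and 1.63% of this sum in WT and 7.54%, 10.99% and 14.4% in TSK libraries. Wnt2 made up 1.86%, 2.57% and 1.57% in WT and 9.36%, 7.71% and 21.5% in TSK libraries. Both ligands thus went from a minor share to a substantial one in each TSK library. Wnt4 made up 24.9% ± 0.921 in WT and 14.9% ± 4.59 in TSK, and Wnt10a 15.6% ± 2.36 and 10.3% ± 1.22. A share also falls when the other ligands become more abundant, as shares add up to the whole.

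By mean level per kilobase, Wnt2 and Wnt10b were in places 12 and 13 of the 19 ligands in WT skin, and in places 2 and 3 in TSK skin. TSK 3 weighed on the latter: Wnt2 was in places 4, 7 and 1 and Wnt10b in places 7, 3 and 2 in TSK 1 to 3, and without TSK 3 their mean levels were in places 6 and 5. In the single WT libraries both were in places 11 to 13. The order in WT skin was led by Wnt4 at 6.98 ± 0.480 CPM per kilobase, Wnt10a at 4.38 ± 0.818, Wnt7b at 3.07 ± 0.393 and Wnt3 at 2.97 ± 0.753. Wnt4 and Wnt10a were apart by more than their SDs, and Wnt7b and Wnt3 were not. In TSK skin, Wnt4 at 5.24 ± 2.24, Wnt2 at 4.43 ± 2.59, Wnt10b at 3.73 ± 1.05 and Wnt10a at 3.54 ± 0.462 were all within their SDs of each other. Wnt2b rose without leaving place 14, at 0.0631 ± 0.0125 in WT and 0.433 ± 0.173 in TSK. These levels depend on exon lengths taken from the annotation, and no test was run on the shares.

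**Figure D3:**
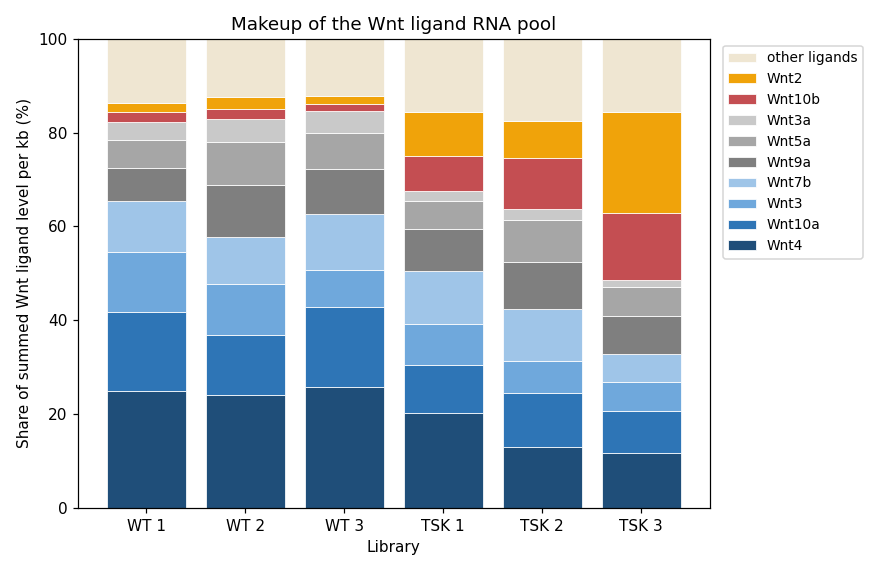
Share of each Wnt ligand gene in the summed ligand level per kilobase of exon, in percent, for each of the 6 libraries, with the remaining 10 ligands joined as other ligands. Wnt10b (red) takes 1.63% to 2.02% of the WT bars and 7.54% to 14.4% of the TSK bars, and Wnt2 (orange) reaches 21.5% in TSK 3.

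Co-receptors, Lgr receptors and secretion genes were not called. Lrp6 was the most abundant co-receptor gene per kilobase, at 155, 183 and 173 CPM in WT and at 193, 203 and 212 CPM in TSK skin. The groups did not overlap, and the log2 fold change was 0.25 (95% interval -0.05 to 0.56, edgeR adjusted p = 0.335). With library size alone, Lrp6 was called at a log2 fold change of 0.54. Lrp5 was at -0.14 (95% interval -0.42 to 0.14).

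Lgr4, the most abundant of the R-spondin receptors, was at 76.4, 70.0 and 68.6 CPM in WT and at 73.6, 65.3 and 81.5 CPM in TSK skin. The groups overlapped, and the log2 fold change was 0.03 (95% interval -0.26 to 0.33). Lgr5, which marks stem cells of the hair follicle, was at 0.67 (95% interval -0.10 to 1.43) and Lgr6 at -0.31 (95% interval -0.86 to 0.25). Wls was at 60.2, 46.7 and 53.4 CPM in WT and at 61.7, 62.9 and 52.1 CPM in TSK skin, with overlap and a log2 fold change of 0.14 (95% interval -0.18 to 0.46). Porcn was at -0.10 (95% interval -0.69 to 0.50).

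The other genes of the Wnt pathway were described from a list of 72 genes in 6 classes, of which 66 were tested. Of these, 10 were higher in TSK skin (15.2%, against 2.71% of all tested genes) and 2 were lower (3.03%, against 0.681%), at an adjusted p below 0.05 in edgeR. The list was chosen with earlier results of these data known, so these shares only describe it. Its tested genes had a median log2 fold change of 0.18. None of the 22 tested genes of transduction inside the cell, such as Ctnnb1 (0.28), Apc (0.00) and Gsk3b (0.02), was called, and their median was 0.11. The 3 genes of receptor turnover, Rnf43, Znrf3 and Zranb1, which R-spondins counter or which act on Frizzled and other pathway proteins, were not called either, at -0.42, -0.08 and -0.22.

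Receptors outside the Frizzled family held 4 of the calls. Ror2, a receptor for Wnt5a, rose by 1.12 on the log2 scale (SE 0.24, adjusted p = 0.0410). Adgra2 and Reck, whose proteins together let cells respond to Wnt7a and Wnt7b, rose by 1.42 and 1.49 (SE 0.22 and 0.28, adjusted p = 0.0172 and 0.0291). Musk, a muscle receptor kinase of the neuromuscular junction, fell by 0.79 on the log2 scale (SE 0.17, adjusted p = 0.0419).

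Of 12 nuclear factors, Lef1, Tcf7l1 and the co-repressor Tle3 rose, by 1.11, 0.76 and 0.55 (adjusted p = 0.0299, 0.0342 and 0.0366). Lef1 was at 3.51, 2.66 and 2.42 CPM in WT and at 6.89, 5.61 and 6.07 CPM in TSK skin, with no overlap. Among 10 tested feedback and target genes, Twist1 alone was called by edgeR, with a rise of 1.65 (adjusted p = 0.0231). Axin2, the most widely used target of the beta-catenin pathway, was at 45.1, 34.3 and 35.5 CPM in WT and at 42.3, 35.0 and 31.2 CPM in TSK skin. Its groups overlapped, and the difference was -0.09 on the log2 scale (SE 0.16, edgeR adjusted p = 0.818). The feedback inhibitors Notum, Nkd1 and Nkd2 were at 2.495, 1.23 and 0.89, and missed the threshold in edgeR with adjusted p of 0.0680, 0.0670 and 0.0680. DESeq2 called all 3 higher, with adjusted p of 0.0213, 0.00677 and 0.0206, and their groups did not overlap. Notum passed the low-count filter of the edgeR test only through its TSK libraries. Secreted antagonists held 4 calls among 11 tested genes: Sfrp2 (3.28), Sfrp4 (2.12) and Dkk2 (1.63) rose, and Frzb (-1.28) fell. DESeq2 called 14 of 68 other pathway genes higher (20.6%, against 5.13% of all genes) and 2 lower (2.94%, against 1.85%). With WT 3 left out, 1 of the other pathway genes was called higher and none lower, when 0.218% and 0.0726% of all genes were, and with WT 2, TSK 1, TSK 2 or TSK 3 left out, 4 to 6 were called higher and 0 to 1 lower, when 1.09% to 2.11% and 0.293% to 0.448% of all genes were.

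**Figure D4:**
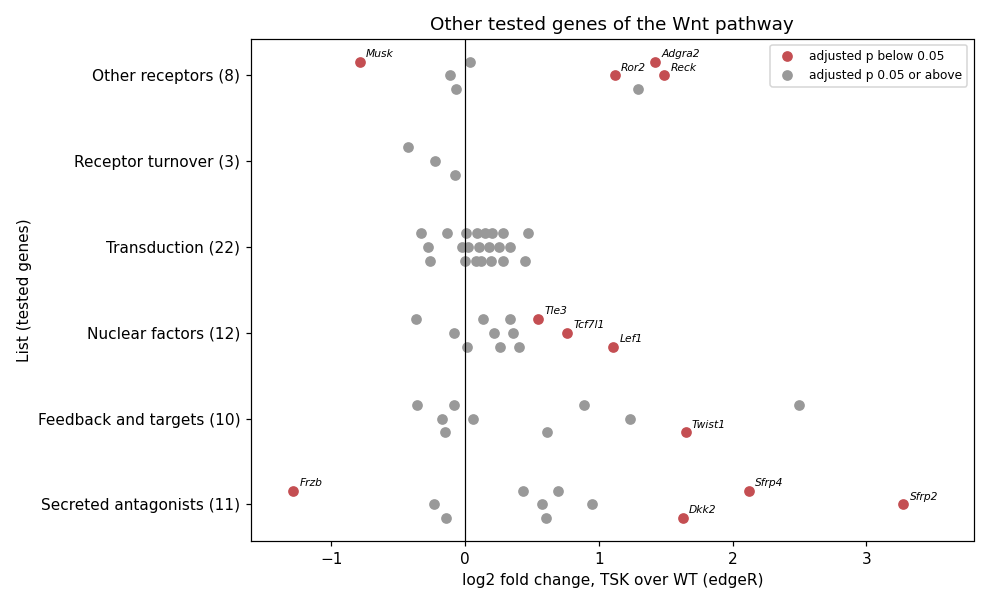
Log2 fold change of TSK over WT from edgeR for the 66 tested other genes of the Wnt pathway, 1 point per gene, by class with the number of tested genes in brackets, and called genes in red with their names. The 22 transduction genes lie from -0.33 (Dvl1) to 0.47 (Ctnnbip1) and none is called. The called genes are receptors, nuclear factors, Twist1 and secreted antagonists.

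Marker genes of cell types that make or receive Wnt differed between the libraries as well. All 14 fibroblast genes were tested and fitted above 0, with 3 called higher (Dpt, Thy1 and Loxl1) and a median log2 fold change of 0.95. Over all tested genes, 2.71% were called higher and 0.681% lower, which is the share beside each marker list below as well. All tested hair matrix and shaft, endothelial, macrophage and Schwann cell genes also fitted above 0. The summed level of the fibroblast genes was 6834 to 12222 CPM in WT and 21010, 19769 and 44280 CPM in TSK 1 to 3. TSK 3 was the highest library for the fibroblast genes, for the macrophage, Schwann cell, dermal papilla and hair bulge genes, and for Wnt10b, Wnt2, Fzd2, Wnt11 and Rspo1.

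Of 13 hair matrix and shaft genes in the table, 9 were tested and all fitted above 0, with a median of 1.48. Of these, 3 (Krt25, Krt27 and Krt71) were called higher, against 2.71% of all tested genes. The sum of the hair matrix and shaft genes was 9.14 to 18.2 CPM in WT and 30.1 to 36.6 CPM in TSK skin. Of 7 dermal papilla genes, 6 were tested and Corin was called higher, with a median of 0.35 and sums of 11.6 to 15.6 CPM in WT and 18.2 to 25.2 CPM in TSK skin. Both cell types belong to hair follicles, and their sums did not overlap between the groups. The fibroblast, endothelial, macrophage, melanocyte and sebaceous sums were also higher in TSK skin without overlap. The adult muscle, developing muscle and smooth muscle and pericyte sums were lower without overlap.

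Of the muscle genes, none of the 16 adult ones was called (median -0.80). Of 10 tested genes of developing muscle, 7 were lower (median -1.92), against 0.681% of all tested genes. The developing muscle genes summed to 340 to 572 CPM in WT and 69.9 to 140 CPM in TSK skin. In one fit the 16 adult muscle genes and the ribosomal RNA and mitochondrial genes, 407 in all, were left out. Wnt10b, Wnt2, Wnt2b and Fzd2 were called as before. The developing muscle genes and any other muscle genes stayed in that fit. Of 12 adipocyte genes, 3 were called higher (median 2.45), but the sums overlapped, at 2941 to 4356 CPM in WT and 2823 to 6405 CPM in TSK, where TSK 2 was the highest library. TSK 2 was also highest for the hair matrix, endothelial, melanocyte and sebaceous genes and for Wnt2b. None of the 10 macrophage genes was called (median 0.97), with sums of 305 to 401 CPM in WT and 442 to 1147 CPM in TSK. No gene of these lists was at 0 in all libraries. The part of each cell type in the levels of Wnt10b, Wnt2, Wnt2b and Fzd2 was not tested.

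**Figure D5:**
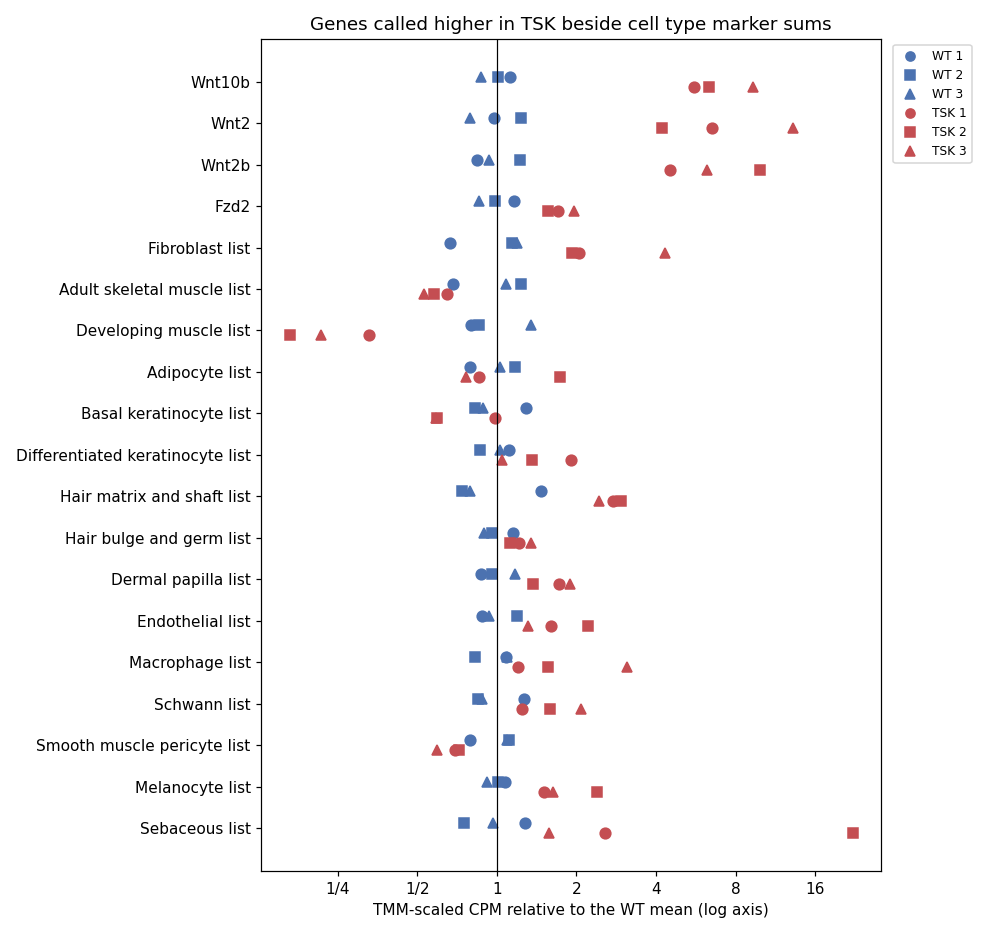
TMM-scaled CPM of the 4 called members and summed TMM-scaled CPM of 15 marker lists in each library, divided by the WT mean, on a log axis, with WT in blue and TSK in red and a symbol for each replicate. Wnt10b, Wnt2 and Wnt2b lie to the right of WT in all 3 TSK libraries, TSK 3 stands to the right for the fibroblast list, and TSK 2 for the sebaceous list lies farther out than any other point, at 8987 CPM.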

How the data were processed

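RNA was measured in the back skin of 6 mice, 3 per genotype, and groups were taken from the genotype in the labels. The authors depleted ribosomal RNA, sequenced stranded single-end reads of 50 bases, demultiplexed with bcl2fastq 2.19.1.403, aligned to mm10 with STAR and quantified Ensembl genes in Partek Flow 11.0. The authors deposited a table of estimated counts, of which 43.3% to 45.4% of non-zero values per library were whole (within 0.001), and a table of CPM, which equals the count scaled to 1000000 per library apart from a small offset. Where reads that fit several genes are shared among them, such counts are not whole. The estimated counts were rounded to whole numbers before the count tests.

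Genes kept by filterByExpr (19971) were tested with the quasi-likelihood F test of edgeR 4.0.16 in R 4.3.3 with TMM, two-sided, with Benjamini-Hochberg adjustment. Standard errors come from the fold change and F. P-values set the difference between the genotypes against the spread between 3 mice per group. The estimate of that spread borrowed from all tested genes. Members and lists were chosen with earlier results of these data known. Per-library values were given for members called by edgeR, for those called by DESeq2 with no overlap and for the most abundant of each role. The other members were given by role. Of the other pathway genes and markers, those called by edgeR and up to 3 more per list were given. The feedback and target list is an exception, with Axin2, Notum, Nkd1 and Nkd2 given beside the called gene. Alternatives were DESeq2 1.42.0, its size factors in edgeR, library size alone, no filter and a CPM of at least 1 in 3 libraries. Further ones used limma 3.58.1 (voom, and trend on log2 of the deposited CPM plus 1 or 0.1). Others left out the listed adult muscle genes with ribosomal RNA and mitochondrial genes, left out each library or used a replicate block. The main fit, DESeq2, limma-voom, limma-trend with CPM plus 1 and the replicate block were run on simulated counts. The other alternatives were not.

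Gene positions were those of GENCODE M21 (mm10), which matched the deposited ones within 1 base for all 40 members. Levels per kilobase used the union of exons. Ratios of untested genes have exact binomial intervals at 95%. Fbn1 itself and the other data types of the study were not analysed here.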

Additional observations from a re-analysis of the deposited data

How the results depend on the processing

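Wnt10b was called in all 16 alternative fits, and no member was called lower except Wnt4 without TSK 1. The count of 4 higher members became 7 with library size only, with DESeq2 and with no filter, and 8 with limma-trend at either pseudocount. Over all genes the higher share went from 2.71% to 8.44%, 5.13%, 2.99%, 8.87% (plus 1) and 8.82% (plus 0.1). The count of higher members ran from 1 to 7 when a library was left out. It was 7 without WT 1 (3.47% of all genes), and Wnt10b alone was called without WT 3 (0.218% of all genes). At the study's thresholds the count of 1 became 3 with library size only, DESeq2 and the pseudocount of 0.1, 2 with the pseudocount of 1 and 4 with no filter, and ran from 0 to 2 with a library left out. Over all genes that share went from 0.255% to 1.45%, 1.40%, 1.57%, 1.35% and 0.847% in the same order, and ran from 0.00484% to 0.205%. The count of lower members ran from 0 to 1 with a library left out, when 0.0726% to 2.66% of all genes were lower (0.448% without TSK 1). Higher calls among the other pathway genes went from 10 to 16 with library size only and 17 with limma-trend, lower calls from 2 to 1 in those 3 fits (over all genes, from 0.681% to 0.466%, 0.501% and 0.496%), and with a library left out they ran from 1 to 13 and from 0 to 2. The members' median of 0.14 became 0.40 with library size only and 0.42 with limma-trend at either pseudocount, and ran from 0.091 to 0.23 with a library left out. All 3 of these fits apply no TMM scaling, and the median of all tested genes moves to 0.25 with library size only.

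Of 528 alternative log2 fold changes of single members, 467 kept direction and side of the threshold, 18 passed it only in the alternative, 7 passed it only as reported and 36 changed sign. Those that changed sign were not called. With library size only, limma-trend plus 1 and limma-trend plus 0.1, in that order, the values were 0.19, 0.20 and 0.21 for Fzd3, 0.11, 0.053 and 0.055 for Fzd9, 0.14, 0.14 and 0.14 for Lrp5, 0.18, 0.12 and 0.13 for Porcn, 0.18, 0.13 and 0.27 for Rspo3, 0.15, 0.056 and 0.046 for Wnt16, and 0.0035, 0.024 and 0.029 for Wnt3. Rspo3 was at 0.00050 with limma-voom. With a library left out, the ranges were -0.17 to 0.048 for Fzd3, -0.092 to 0.29 for Fzd4, -0.041 to 0.066 for Fzd7, -0.61 to 0.049 for Fzd9, -0.046 to 0.11 for Lgr4, -0.38 to 0.10 for Porcn, -0.37 to 0.23 for Rspo3, -0.47 to 0.23 for Wnt16, -0.12 to 0.28 for Wnt6 and -0.19 to 0.34 for Wnt7b. The cause was not tested.

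The replicate block changed none of these counts, while calls over all genes went from 2.71% to 3.33% higher, from 0.681% to 0.646% lower and from 0.255% to 0.421% higher at the study's thresholds: 4 members were higher and 0 lower, 1 passed the study's thresholds, and 10 and 2 other pathway genes were called, while the median was 0.14. Deviations of same-numbered libraries correlated at 0.0112, 0.167 and -0.0938. No other pairs were compared, so these values cannot tell whether the numbers pair the mice. The 7 untested members had at most 18 counts in a library, which limits what the test can show of them.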

Other observations

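Marker genes of further skin cell types were given as values. Over all tested genes, edgeR called 2.71% higher and 0.681% lower. None of the 7 basal keratinocyte genes was called, at a median of -0.40 on the log2 fold change scale, and 3 of 9 differentiated keratinocyte genes (Lor, Krtdap and Dsc1) were higher in TSK skin, with a median of 0.51. Of the 7 hair bulge and germ genes, Cd34 and Krt24 were called, 1 higher and 1 lower, with a median of 0.21. Tek and Vwf were higher among 9 endothelial genes (median 0.78), Pmp22 among 6 Schwann cell genes (median 0.62) and Myh11 among 7 smooth muscle and pericyte genes (median 0.54), although the sum of the last list was 1987 to 2791 CPM in WT and 1486 to 1801 CPM in TSK skin. None of the 5 tested melanocyte genes (median 0.98) and none of the 6 sebaceous gland genes (median 0.19) was called. The sebaceous sum was 304 to 520 CPM in WT and 1042, 8987 and 637 CPM in TSK 1 to 3, so that TSK 2 stood far above all other libraries.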
